A study of Mus musculus with 12 samples.

Results

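Fabp3 and 5 further genes of the fatty acid binding protein family were examined in mouse mammary tumors labelled ShcA-null. The 6 genes, Fabp1, Fabp2, Fabp3, Fabp5, Fabp6 and Fabp7, were chosen by name, as the gene probes whose name in the scanner files is a family member, and they were singled out with their log2 ratio of tumor over reference in the deposited value table in view on all 12 arrays. They were represented by 7 probes of 41174 gene probes. Of these, 4 probes of 4 genes (Fabp2, Fabp3, Fabp5 and Fabp7) passed the filter on dim probes, and 4 of the 20377 genes tested are therefore family members described here. Fabp4, which belongs with the adipocyte genes, was not a member and is given only for comparison. Because the mean difference from the pool was used in choosing the genes, it is given as a description with no test.

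The study set 8 tumors labelled ShcA-null against 1 pooled reference RNA from NIC mammary tumors, on 12 two-colour oligonucleotide arrays. ShcA, an adaptor, couples activated growth factor receptors to the Ras pathway, and in NIC mammary tumors an activated Neu (ErbB2) receptor and Cre recombinase come from the same transcript in mammary epithelium, so that Cre is not made in the stroma. On the first array of each tumor the tumor RNA carried Cy5, and on 4 further arrays, labelled as tumors 1 to 4, the dyes were swapped and the tumor RNA carried Cy3. The labels name the groups only as ShcA-null tumors and a pooled NIC tumor reference. They do not give the strain or age, the deleted part of the gene, the number of tumors in the pool or whether the 8 tumors came from separate animals. The p-values below therefore refer to these 8 samples as labelled, and the pool counts as 1 control sample without a spread of its own.

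Fatty acid binding proteins are small cytosolic proteins that hold a long-chain fatty acid or a related lipid inside a barrel-shaped pocket and carry it between membranes, enzymes and nuclear receptors. Each is named after a tissue in which it is abundant. Fabp3 is the heart and muscle form and also the form that rises in the mammary epithelium around lactation, where it was first described as mammary-derived growth inhibitor. Fabp5 is the epidermal form, found widely in epithelia and macrophages, and Fabp7 is the brain form, found in radial glia and astrocytes. Fabp1, Fabp2 and Fabp6 belong to the liver, the small intestine and the ileum, where Fabp6 carries bile acids.

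The first 30 bases of the probes that gave a signal are shown, because every value below is the brightness of these sequences. They are written 5′ to 3′ as in the scanner files, with positions in mouse build mm7. The Fabp3 probe, A_51_P167535 (NM_010174), lies at chr4:129760011-129760070. The Fabp5 probe, A_51_P387764 (NM_010634), lies at chr3:10022040-10022099. The Fabp7 probe, A_51_P290074 (NM_021272), lies at chr10:57609720-57609779, and the Fabp2 probe, A_51_P313581 (NM_007980), at chr3:122738629-122738688. Exon annotation of this build was not used here.
Fabp3: catcagcctggacccagttcctactatgta
Fabp5: attggtgatacattataacacttagaaatt
Fabp7: tgaagcactggtcactaattataagtttgt
Fabp2: aggctcattcgtcatcctatcagcactggt

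The log2 ratio of an array is positive where the tumor RNA was brighter than the pool. Between 63.5% and 77.6% of the gene spots of an array were well above background in the tumor channel. Over all genes the median of the mean log2 ratio was -0.02, and 3502 of 20377 genes (17.2%) were called by limma at an adjusted p under 0.05, 6.61% higher and 10.6% lower in the tumors than in the pool. The swapped arrays did not all match their tumor labels. Across genes, the swapped array labelled tumor 1 correlated best with the first array of tumor 1 (r = 0.44). The swapped arrays labelled tumors 2, 3 and 4 correlated best with the first arrays of tumors 3 (r = 0.817), 4 (r = 0.392) and 8 (r = 0.681), against 0.142, 0.134 and 0.294 with the tumor of their label. Values of single tumors are therefore taken from the 8 first arrays, and the swapped arrays are given beside them under their labels. The limma p-values and the SDs beside them average arrays as labelled. If those labels are off, the averages of tumors 2, 3 and 4 mix different tumors, and the 8 values are not separate samples. With a dye term, the correlation between arrays of a tumor was -0.037 as labelled. It was 0.927 with swapped arrays grouped by best correlation, where 1623 genes were called. That grouping was picked by correlation on the same arrays. A high value was therefore built in, and it is no separate evidence on the labels.

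Fabp3, the heart and mammary form, was brighter in the tumor channel than in the pool on all 12 arrays. Across tumors 1 to 8, the first arrays gave log2 ratios of 2.31, 2.25, 3.80, 2.74, 2.65, 1.96, 1.70 and 3.29. The 4 swapped arrays gave 1.66, 2.70, 2.27 and 2.62 in the order of their labels. Tumors 3 and 8 were the highest and tumors 6 and 7 the lowest, and no array came near a ratio of 0. The mean over the first arrays was 2.59 ± 0.69 (SD, n = 8), which is 6.01-fold, with single tumors from 3.24-fold to 13.9-fold above the pool. With both arrays of a tumor averaged as labelled the mean was 2.47 ± 0.56 (SD, n = 8), or 5.54-fold. The deposited value table, whose values chose the genes, gave 2.60 ± 0.54 (SD over 12 arrays), with a lowest value of 1.93.

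The spread of Fabp3 lay in the tumor channel. Its normalized log2 intensity in the tumor RNA of the first arrays ran from 11.47 to 14.10 (SD 0.86), while the same pool RNA gave 9.78 to 10.84 (SD 0.35). These ranges did not overlap. Among 16460 genes measured on all 8 first arrays, 67.1% had a smaller SD between tumors than the 0.69 of Fabp3, against a median SD of 0.52. Of the 4 genes measured here it was the member with the highest ratio. In tumor tissue a ratio of this kind cannot tell apart a different number of cells that make the RNA and a different amount of RNA per cell.

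Fabp5, the epidermal form, had no common direction on the first arrays. In tumors 1 to 8 the log2 ratio of first arrays was -1.46, 0.26, 0.54, 0.76, 0.54, 2.35, 0.57 and -0.95. Swapped arrays gave 0.03, 1.69, 2.12 and 0.23 by label. On the first arrays tumor 6 was the highest and tumors 1 and 8 lay below the pool, with the other 5 tumors between 0.26 and 0.76. No swapped array lay below the pool. The swapped array labelled tumor 1 gave 0.03, and the one best correlated with the first array of tumor 8 gave 0.23. The sign for tumor 1, and for tumor 8 on that match, therefore differed between the dye orientations. The range over first arrays was 3.82 on the log2 scale, or 14.1-fold between tumors 6 and 1. The mean of the first arrays was 0.33 ± 1.15 (SD, n = 8), smaller than its spread, and with arrays averaged as labelled it was 0.57 ± 1.06 (SD, n = 8). An SD smaller than that of Fabp5 was found for 90.9% of the genes measured on all first arrays.

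Fabp7, the brain form, differed between tumors about as widely as Fabp5, and tumor 6 was again the highest. Its first-array log2 ratio was 0.19, 1.62, 0.09, 1.79, -0.76, 2.24, 1.96 and -0.57 in tumors 1 to 8, and by label the swapped arrays gave 0.22, 0.20, 1.79 and -0.50. Tumors 2, 4, 6 and 7 lay at 1.62 or above, tumors 1 and 3 near the pool, and tumors 5 and 8 below it. The mean was 0.82 ± 1.21 (SD, n = 8) on the first arrays and 0.70 ± 1.07 (SD, n = 8) as labelled. The Fabp7 intensity of the tumor channel ran from 7.75 to 11.10 on the log2 scale and that of the pool from 8.17 to 9.07. A smaller SD than that of Fabp7 was found for 92.6% of genes.

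**Figure D1:**
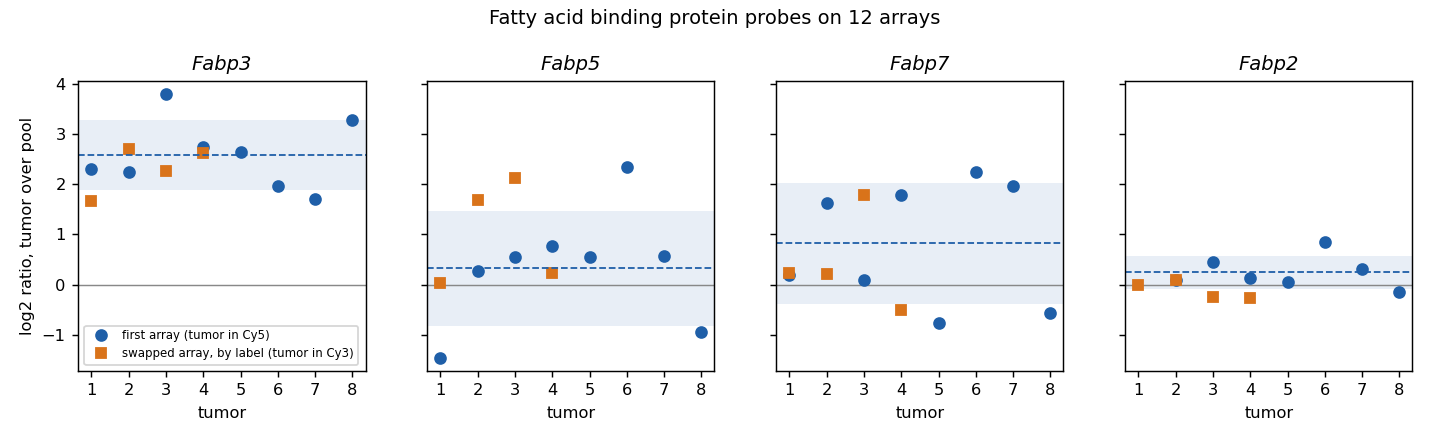
Log2 ratio of tumor over pool (vertical axis) by tumor (horizontal axis) for Fabp3, Fabp5, Fabp7 and Fabp2. Circles are the 8 first arrays, squares the 4 swapped arrays placed by their label, and the dashed line and band are the mean and SD of the first arrays. Every Fabp3 point lies at 1.66 or above, while Fabp5 and Fabp7 have points on both sides of 0.

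The intestinal gene Fabp2 was close to the pool. Its brighter probe stood well above background in both channels of all 12 arrays, and its log2 ratio on the first arrays of tumors 2 to 8 was 0.09, 0.45, 0.12, 0.05, 0.85, 0.30 and -0.14, the spot of tumor 1 being left out as an outlier. On the swapped arrays it was -0.01, 0.08, -0.24 and -0.26. The mean as labelled was 0.15 ± 0.31 (SD, n = 8), with tumor 6 the highest. A second Fabp2 probe (A_52_P453013, mm7 chr3:122736043-122736102) was not well above background on any array, so the 2 probes of this gene disagree and only the brighter of them gives a ratio. The liver gene Fabp1 (A_51_P487818, mm7 chr6:71222913-71222972) was well above background in the tumor channel on 2 of 12 arrays, the first arrays of tumors 7 and 8, and in the pool on 1 of 12. The ileal gene Fabp6 (A_51_P309066, mm7 chr11:43558205-43558264) was above background on no array in either RNA. No fold is given for Fabp1, Fabp6 or the second Fabp2 probe. Of the 9 listed markers of intestine and liver epithelium, 3 (Vil1, Alb and Lgals4) could be tested, and limma called 0 of them, also at an unadjusted p under 0.05. Over all genes 17.2% were called, so a count among 3 genes is too small to differ from that share. The Alb probe rose well above background in the tumor RNA on 4 of 12 arrays and in the pool RNA on 2.

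The ratios of Fabp3 and Fabp5 differed between the dye orientations, in opposite directions, and that of Fabp7 did so by at most 0.12. Set against the first array it correlated with best across genes, each of the 4 swapped arrays gave a higher Fabp5 ratio, by 1.15 to 1.49 with a mean of 1.29. For Fabp3 each gave a lower ratio, by -1.10 to -0.47 with a mean of -0.73. For Fabp7 the differences were 0.01 to 0.12, whereas against the first array of the tumor on their label they differed by 1.35 in absolute mean. The Fabp5 intensity of the pool, which is the same RNA throughout, was 9.45 ± 0.28 (SD, n = 8 arrays) in Cy3 and 8.26 ± 0.11 (SD, n = 4 arrays) in Cy5, and the ranges did not overlap. For Fabp3 the pool gave 10.18 ± 0.35 (SD, n = 8 arrays) in Cy3 and 10.91 ± 0.46 (SD, n = 4 arrays) in Cy5. Slide and dye cannot be told apart here, because the swapped arrays fill a slide of their own. When all 12 arrays were fitted together, with the dye as a term and each swapped array blocked with its best-correlated first array, the mean was 2.24 for Fabp3, 0.95 for Fabp5 and 0.83 for Fabp7.

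**Figure D2:**
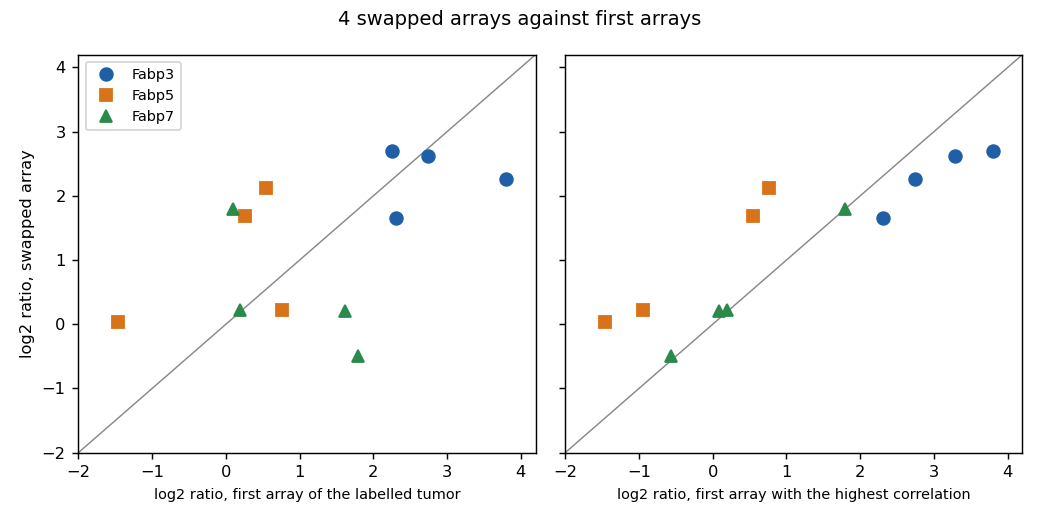
Log2 ratio on the 4 swapped arrays (vertical axes) against the first array of the labelled tumor (left) and against the first array with the highest correlation across genes (right), for Fabp3, Fabp5 and Fabp7. The diagonal marks equal ratios, and in the right panel Fabp7 lies on it, Fabp5 above it by 1.15 to 1.49 and Fabp3 below it.

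**Figure D3:**
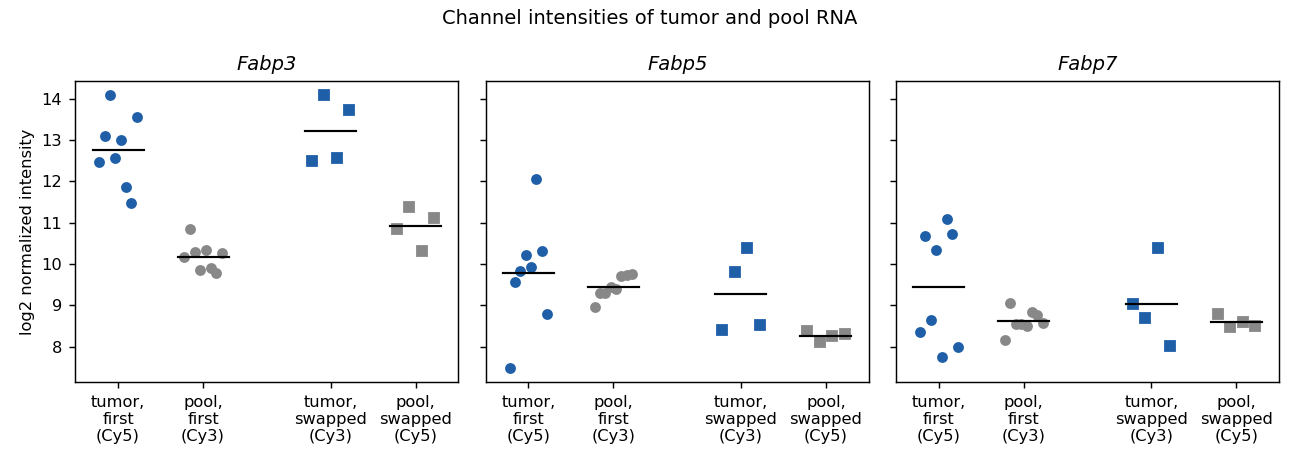
Normalized log2 intensity (vertical axes) of Fabp3, Fabp5 and Fabp7 in tumor RNA and pool RNA on first arrays (circles, n = 8) and swapped arrays (squares, n = 4), with black bars at the means. For Fabp3 the tumor and pool points are apart in both dye orientations, and the Fabp5 pool points are lower on the swapped arrays.

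The first arrays of tumors 1 to 4 and of tumors 5 to 8 were on different slides. The Fabp3 mean was 2.78 ± 0.72 (SD, n = 4) on the first slide and 2.40 ± 0.72 (SD, n = 4) on the second, which an exact two-sided permutation test did not separate (p = 0.457, adjusted p = 0.914 over 4 genes, smallest p the design allows 0.0286). For Fabp5, Fabp7 and Fabp2 the exact permutation p was 0.4, 0.714 and 0.971.

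The order of the tumors was set against marker lists of other cell types. The ratios of all 12 arrays were in view when the 6 genes were chosen, so the p-values of these relations are not independent of that choice. A marker list was summed up for each tumor as the median log2 ratio of its genes measured on all 8 first arrays. Fabp3 was highest where the milk genes were highest. The median of 8 milk-secreting epithelium genes ran from 0.09 in tumor 7 to 4.23 in tumor 3, and Fabp3 followed it with Pearson's r = 0.879 (exact permutation p = 0.000942, adjusted p = 0.0151 over 32 pairs of gene and list) and Spearman's rho = 0.929 (exact permutation p = 0.00223, adjusted p = 0.0357). Without tumors 3 and 7, the farthest from the median, r was 0.755. The relation did not pass the adjusted threshold without tumor 1, 3, 4, 7 or 8 (adjusted p = 0.0507, 0.0804, 0.0571, 0.121 and 0.0699 by exact permutation), although r stayed between 0.819 and 0.935 whichever tumor was left out. In the deposited value table it was 0.856 with an adjusted exact permutation p of 0.076, and with median centring in place of loess it was 0.765 with an adjusted exact permutation p of 0.201. Averaging both arrays of a tumor as labelled gave 0.724 (adjusted exact permutation p = 0.301). Each slide holds 4 first arrays, too few for a value within slides.

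The milk genes differed in how closely their order over the tumors was like that of Fabp3. Single genes were taken up after the relation to the list was seen, so their correlations over the 8 first arrays are a description with no test. The closest were Csn1s1 (alpha casein; r = 0.98, rho = 0.952), Wap (whey acidic protein; r = 0.924, rho = 0.976), Csn1s2a (a further casein; r = 0.89, rho = 0.976) and Btn1a1 (butyrophilin of the milk fat globule membrane; r = 0.949, rho = 0.952). Without the 2 farthest tumors their r was 0.991, 0.961, 0.937 and 0.951. The other 4 milk genes measured on all first arrays, Csn1s2b, Lalba, Glycam1 and Elf5, had r of 0.452, 0.111, 0.586 and 0.786. Csn1s1 was 3.70, 3.80, 6.96, 4.25, 4.29, 3.32, 2.59 and 5.22 on the first arrays of tumors 1 to 8, so that tumors 3 and 8 were the highest and tumors 6 and 7 the lowest for both genes. For Csn1s1 the swapped arrays gave 4.16, 4.67, 4.75 and 4.79 by label. The array labelled tumor 1 was the lowest for both genes, but the array labelled tumor 2, the highest of the 4 for Fabp3, was the next lowest for Csn1s1, so the orders differed. The values of 2 genes on an array share its pool channel and its normalization. The milk list as a whole stood at a median of 2.53, with 7 of 10 genes called higher by limma, Csn2 at 4.59 ± 2.11 (SD, n = 7) and Csn1s1 at 4.25 ± 1.02 (SD, n = 8). Over all genes 17.2% were called, and 6.61% were called higher. With a dye term and best-correlated blocks 6 milk genes were called higher. The casein Csn3 was not called (1.06 ± 1.22, SD, n = 8, limma adjusted p = 0.0807), and its sign differed between the dye orientations. It ran from 1.24 to 2.51 on the first arrays where it was measured. On the swapped arrays it was -0.98, -0.73, -1.94 and -1.64 by label.

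**Figure D4:**
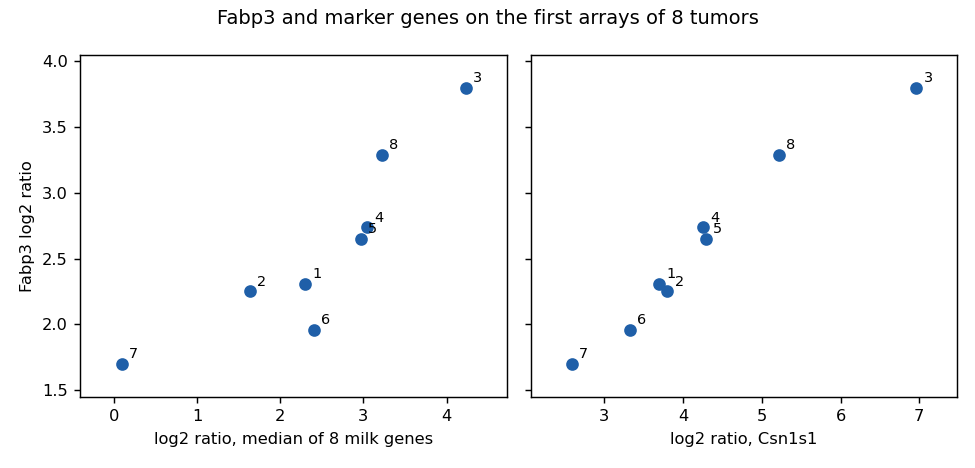
Fabp3 log2 ratio (vertical axis) on the 8 first arrays against the median of the milk genes and against Csn1s1 (horizontal axes, log2 ratios). Numbers name the tumors, with tumors 3 and 8 highest for Fabp3 and Csn1s1 and tumor 7 lowest.

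The pairs given next did not pass. Fabp3 is also a muscle gene, and the skeletal muscle list ran from -0.17 in tumor 1 to 3.88 in tumor 3. Its r with Fabp3 was 0.326 (exact permutation p = 0.425, adjusted p = 0.75), but rho was -0.0476. Without tumors 2 and 3, the farthest from the median of the muscle list, r was -0.777. Between Fabp3 and the keratinocyte list r was 0.631 (exact permutation p = 0.212, adjusted p = 0.678) and rho -0.0714. Tumor 2, with the second highest muscle median of 2.15, had a Fabp3 ratio of 2.25, below the mean. Fabp5 had its largest r with the brown adipocyte list (0.563, exact permutation p = 0.181, adjusted p = 0.644), and with the keratinocyte and macrophage lists r was 0.21 and 0.415 (exact permutation p = 0.337 and 0.267). Tumor 3 had the highest keratinocyte and macrophage medians, 3.03 and 1.79, and its Fabp5 ratio was 0.54. Fabp7 had r = 0.583 with the brown adipocyte list (exact permutation p = 0.121, adjusted p = 0.644) and -0.569 with the milk list (exact permutation p = 0.139, adjusted p = 0.644). For Fabp2, over 7 tumors, r with the brown adipocyte list was 0.708 (exact permutation p = 0.0619, adjusted p = 0.644). The part of these cell types in the Fabp values was not tested beyond these relations.

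Between family members no pair passed over 6 pairs, which were added after the data were seen. Fabp2 and Fabp5 had r = 0.892 over 7 tumors (exact permutation p = 0.023, adjusted p = 0.138), and tumor 6 was the highest for both. Fabp5 and Fabp7 had r = 0.609 and Fabp3 and Fabp7 r = -0.652 (adjusted exact permutation p = 0.244 for each).

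The genes whose pattern over the 8 first arrays was most like a member were ranked among 8603 genes with an SD of at least 0.5, as a description over points that share the pool. For Fabp3 the first was Csn1s1 (r = 0.98), followed by AK051707 (0.969), NAP046356-1 (0.968), Crispld2 (0.968) and A_52_P589808 (0.963), of which 3 carry only a sequence or probe name in the file. Crispld2, a secreted protein, ran from -3.25 to 0.90, so its tumors lay mostly on the other side of the pool although their order was like that of Fabp3. For Fabp5 they were LOC636537, AK082465, 9430079G20Rik, Naa30 and Jazf1 (r from 0.974 to 0.964). For Fabp7 they were Map7d2 (0.952), Tex15, Otor, Vasn and Cd5l (0.901). There were 47 genes above r = 0.9 for Fabp3, 109 for Fabp5 and 5 for Fabp7.

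Because Fabp3 moved with Csn1s1, the 250 bases upstream of both start sites are shown, from RefSeq promoters of build GRCm38.p6, where 5 of the 6 members were matched. Capitals mark matches to TTCNNNGAA, the core of Stat5 binding sites, searched on both strands. It was found in 7.02% of 32851 promoters of this length. Csn1s1 (chr5:87665958-87666207, + strand) has 1 match, and Fabp3 (chr4:130308488-130308737, + strand) has none in these letters. Of the 7 milk genes with a promoter, 3 had a match (Csn1s1, Csn2 and Glycam1). Wap and Csn1s2a, whose order over the tumors was also close to that of Fabp3, had none. Btn1a1 was not among the 7.
Fabp3: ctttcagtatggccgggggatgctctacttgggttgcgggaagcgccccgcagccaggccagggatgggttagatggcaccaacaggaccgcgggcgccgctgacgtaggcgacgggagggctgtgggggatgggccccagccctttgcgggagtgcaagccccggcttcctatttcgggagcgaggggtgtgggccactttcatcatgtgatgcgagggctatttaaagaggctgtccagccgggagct
Csn1s1: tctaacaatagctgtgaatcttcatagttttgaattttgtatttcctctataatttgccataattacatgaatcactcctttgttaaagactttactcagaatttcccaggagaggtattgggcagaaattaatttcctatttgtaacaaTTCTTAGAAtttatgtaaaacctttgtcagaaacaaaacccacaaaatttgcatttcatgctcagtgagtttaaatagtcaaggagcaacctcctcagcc

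The sequences differ in base composition, with 64.8% G and C in the Fabp3 stretch and 32.8% in that of Csn1s1. An exact match to the direct repeat to which PPAR and RXR bind, 2 copies of AGGTCA with 1 base between them, was in none of the 5 member promoters. It was in 0.0335% of all promoters. Imperfect copies of the repeat were not searched for. The single AGGTCA, which is part of the repeat and was found in 14.0% of promoters, occurred at 2 places in Fabp1 and 1 in Fabp7. These matches are a description of the letters only.

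Fabp5 lies in a group of related genes on chromosome 3, beside Pmp2 (chr3:10190607-10190666), Fabp9, Fabp4 (chr3:10212636-10212696) and Fabp12 (chr3:10252567-10252626, all mm7). Fabp4, the adipocyte form, was -0.95, -0.93, 0.58, -0.54, -0.83, -0.33, 2.08 and -0.73 on the first arrays of tumors 1 to 8. It was highest in tumor 7, where Fabp5 was 0.57, and the adipocyte list had its highest median, 1.68, in the same tumor. Its mean was -0.05 ± 0.95 (SD, n = 8, limma adjusted p = 0.927), and 0.64 with median centring. Pmp2 and Fabp12 did not pass the filter, and the Fabp9 spot was an outlier on 11 of 12 arrays.

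Among the related proteins of the same fold that carry retinoids, Crabp2, which brings retinoic acid to its receptors, was -0.33 ± 1.58 (SD, n = 8, limma adjusted p = 0.659).

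Fatty acid uptake and activation genes were mixed. Against 17.2% of all genes called, 3 of 17 tested genes were called higher and 1 lower, with a median of 0.03. Those higher were Dbi, which binds acyl-CoA (1.21 ± 0.79, SD, n = 8, limma adjusted p = 0.012), and the transport proteins Slc27a1 (0.83 ± 0.60, SD, n = 8, limma adjusted p = 0.0201) and Slc27a2 (0.75 ± 0.66, SD, n = 8, limma adjusted p = 0.0401). The Slc27a2 probe rose well above background in the tumor RNA on 5 of 12 arrays and in the pool RNA on 1, so its ratio rests mostly on dim spots. Scp2, a sterol and fatty acyl carrier, was lower (-1.07 ± 0.44, SD, n = 8, limma adjusted p = 0.00288, below 0 in 8 of 8 tumors), but it was -0.44 and not called under median centring (limma adjusted p = 0.207). The fatty acid receptor Cd36 was 0.41 ± 0.49 (limma adjusted p = 0.12), the lipase Lpl 0.01 ± 0.86 (0.99) and the acyl-CoA synthetase Acsl1 -0.29 ± 0.64 (0.354), none of them called. Under median centring Cd36 was called at 0.78 (limma adjusted p = 0.0263). With a dye term and best-correlated blocks, the counts were 1 higher and 1 lower. There Cd36 was called at 0.66 (limma adjusted p = 0.0425), Scp2 kept its call (limma adjusted p = 0.0205), and Dbi (0.61, limma adjusted p = 0.24), Slc27a1 (0.49, 0.381) and Slc27a2 (0.77, 0.0815) were not called.

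Of the 23 genes of fatty acid oxidation, which lies downstream of binding and transport, none was called higher and 2 lower, with a median of -0.24 that became 0.25 under median centring. The 2 genes were the isomerase Eci1 (-0.35 ± 0.14, SD, n = 8, limma adjusted p = 0.0212) and the peroxisomal thiolase Acaa1a (-0.32 ± 0.18, SD, n = 8, limma adjusted p = 0.0384), and both reversed sign under median centring. Cpt1a and Cpt1b, the liver and muscle forms of the enzyme that admits fatty acids to mitochondria, were -0.22 ± 0.44 and 0.21 ± 0.51 (limma adjusted p = 0.335 and 0.42). For comparison, 17.2% of all genes were called.

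Nuclear receptors that bind fatty acids or retinoids, and their coregulators, gave 1 gene higher and 3 lower of 13 tested, with a median of -0.15. Over all genes 17.2% were called. Ppargc1a, a coactivator of PPAR receptors, was lower (-1.31 ± 0.58, SD, n = 8, limma adjusted p = 0.00313), as were Rarb (-0.68 ± 0.42, limma adjusted p = 0.0143) and Ppara (-0.50 ± 0.31, limma adjusted p = 0.0215). A further Rarb probe had a mean of 0.01, so the probes of this gene disagree. Nr1h3, the oxysterol receptor, was higher (0.82 ± 0.51, SD, n = 7, limma adjusted p = 0.0176). Pparg, the adipocyte PPAR, was -0.04 ± 0.60 (limma adjusted p = 0.893), and Ppard did not pass the filter. With a dye term and best-correlated blocks, Rarb was called (limma adjusted p = 0.0314), while Ppargc1a was -1.27 (limma adjusted p = 0.0744), Ppara -0.53 (0.0974) and Nr1h3 0.56 (0.0732). Rarb was -0.65 and not called with Feature Extraction's ratio (limma adjusted p = 0.0537), and Ppara was -0.46 and not called on the first arrays alone (0.0591).

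PPAR target genes numbered 2 higher and none lower of 11 tested, with a median of 0.30, beside 17.2% of all genes called. Ucp3, a mitochondrial carrier (0.82 ± 0.61, SD, n = 8, limma adjusted p = 0.0224), and the thioesterase Acot1 (0.76 ± 0.58, SD, n = 8, limma adjusted p = 0.0256) were the 2, and Plin2, a lipid droplet coat protein, was 0.41 ± 0.49 (limma adjusted p = 0.117), and was called at 0.98 under median centring (limma adjusted p = 0.01). The Ucp3 probe rose well above background in the tumor RNA on 5 of 12 arrays and in the pool RNA on 3. With a dye term and best-correlated blocks Ucp3 was 0.73 (limma adjusted p = 0.246) and Acot1 0.81 (0.0717), neither of them called. On the first arrays alone Acot1 was 0.35 (limma adjusted p = 0.408). In triglyceride synthesis and lipid droplets 1 of 18 genes was called, Lpin1, the phosphatidate phosphatase (-1.24 ± 0.41, SD, n = 8, limma adjusted p = 0.00131, below 0 in 8 of 8 tumors, and -1.22 with the dye term). The median of that list was -0.08, and 0.22 under median centring.

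**Figure D5:**
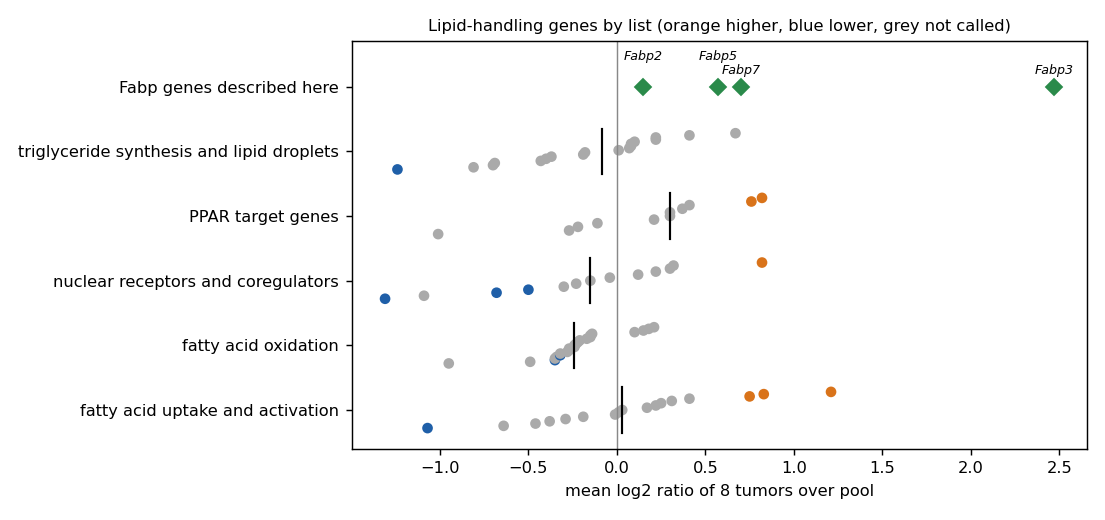
Mean log2 ratio over 8 tumors (horizontal axis) for each tested gene of 5 lipid-handling lists (rows), with called genes in colour and the list median as a black bar. The top row gives the 4 measured members as diamonds with no test, Fabp3 at 2.47 and the others between 0.15 and 0.70.

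Other marker lists moved between tumors as well. The share of all genes called, for comparison with the counts that follow, was 17.2%. Adipocyte genes had 0 of 8 called by limma (1 at an unadjusted p under 0.05), with medians from -1.69 in tumor 8 to 1.68 in tumor 7. For endothelium and macrophages 0 of 7 genes each were called by limma (1 each at an unadjusted p under 0.05), with medians from -0.59 to 1.01 and from -0.54 to 1.79. Skeletal muscle had 3 of 10 called higher (Mylpf 0.99 ± 0.89, Tnnc2 0.89 ± 0.74 and Myh1 0.85 ± 0.76, limma adjusted p = 0.0384, 0.0309 and 0.0391). With the dye term and best-correlated blocks they were 0.84, 0.86 and 0.78 and not called (limma adjusted p = 0.259, 0.138 and 0.214). The Myh1 probe rose well above background in the tumor RNA on 6 of 12 arrays and in the pool RNA on 3, and its other probes had means of 0.24 and 0.50. The basal keratins Krt5 and Krt14 were called higher (1.29 ± 0.68 and 0.83 ± 0.63), 2 of 8 genes of that list. Neither was called with the dye term and best-correlated blocks, at 1.16 and 0.69 (limma adjusted p = 0.0722 and 0.251), nor Krt14 on the first arrays alone, at 0.99 (0.0733). Of the glia genes, S100b and Mbp were called lower, at -1.30 ± 0.85 and -0.39 ± 0.18. Under median centring they were -0.82 and 0.03 and not called (limma adjusted p = 0.119 and 0.94). Of 4 brown adipocyte genes 1, Cox7a1, was lower (-0.99 ± 0.44, limma adjusted p = 0.00377), and it was -0.60 and not called under median centring (limma adjusted p = 0.069).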

How the data were processed

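Tumor RNA and pooled reference RNA were hybridised together on 12 Agilent two-colour arrays of 8 tumors. Per the labels' protocols, 500 ng of total RNA went through 1 round of T7 linear amplification. Spot quantification used Feature Extraction 9.5.3.1, per the file headers, and probe coordinates refer to mm7. Mean foreground and median background intensity of each spot were deposited without normalization. The deposited log10 ratio is red over green of signals that Feature Extraction had background-subtracted, detrended and dye-normalized, per the file headers. Other deposited values are flags that mark a spot as saturated, outlying or well above background. A log2 value table was deposited by the authors as well. Its slope on the scanner ratio of red over green was 0.758 to 0.797 on first arrays and -0.748 to -0.715 on swapped arrays, so it already is tumor over reference. Its column medians were 0, 0.00575, -0.0715, -0.00668, -0.0252, 0.137, 0.115 and 0.000792 for first arrays and -0.0124, -0.0508, -0.00659 and -0.00298 for swapped arrays. Its normalization and centring are not given in the sources used here.

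Background was corrected by normexp (offset 50), arrays were normalized by loess in limma 3.58.1 (R 4.3.3, packages jsonlite 2.0.0 and, in version 1.17.8, data.table), outlier spots were left out (0.47% to 13.7% of an array, with tumor 1's first array the worst), and ratios were turned to tumor over pool. Control spots (1639 beside 43379 gene spots) had weight 0. Both arrays of a tumor were averaged as labelled (n = 8) and means tested against 0 with lmFit and eBayes, with Benjamini-Hochberg adjustment over 20377 genes. Spread between control tumors does not enter this test. Probes (30807) were kept where either channel was well above background in at least 4 tumors. Probes were named through accession (22951), symbol (6659) or older symbol (3109) in RefSeq names of GRCm38.p6, while 8455 were left under the file's own name. A gene is its kept probe with the highest mean intensity. Relations over tumors used the first arrays and exact two-sided permutation tests, run with Python 3.11.15, numpy 2.4.6, pandas 2.3.3 and scipy 1.17.1, and figures used matplotlib 3.10.9. Both kinds of test were tested on simulated data.

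The members and gene lists were chosen with earlier results of these data known. All member probes are described, with at most 4 called genes with the largest means of each list, genes fixed by name (Cd36, Lpl, Pparg, Ppara, Ppard, Cpt1a, Cpt1b, Plin2, Acsl1, Crabp2, Pmp2 and Fabp4), and the 5 genes most like a member. Some results of the lists of related lipid-binding proteins and glia are not reported here. Other genes named were chosen after their values were seen. Alternatives were median centring, Feature Extraction's ratio, the value table, outlier spots kept, first arrays only, dye terms, slide blocks, other filters and leaving out each tumor.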

Additional observations from a re-analysis of the deposited data

Results flagged for a closer look

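Of 30 groups of arrays of a gene that were looked at for an array far from the rest, 2 held such an array, and chance alone gives about 1 in 20. For Ppara the first array of tumor 3 stood at a log2 ratio of -1.40 against -0.65 for the nearest of the other first arrays, a gap of 0.551 of the whole range. For Crabp2 the first array of tumor 6 stood at -4.11 against -1.57 for the nearest, a gap of 0.53 of the range. No Fabp array was among them.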

How the results depend on the processing

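The means of Fabp2, Fabp3, Fabp5 and Fabp7 kept their sign and stayed within 1 SD under all 16 alternatives each, from 2.24 to 2.73 for Fabp3, 0.32 to 0.95 for Fabp5, 0.48 to 0.95 for Fabp7 and 0.04 to 0.26 for Fabp2. All of these alternatives use the same 12 arrays, and 1 of them is the value table in view when the genes were chosen. They describe dependence on processing and are no independent check of the means. The count of genes called by limma, 3502, was 1623 with a dye term and swapped arrays blocked with the best-correlated first array (chosen after the data were seen), and 1953 to 4539 leaving out a tumor, the fewest without tumor 4 and then without tumor 8 (2229). Median centring moved the median of all genes from -0.02 to 0.16. Among the called genes, it moved the share that was higher from 38.4% to 71%. It reversed Eci1 (0.20), Acaa1a (0.33) and Mbp (0.03). Of 27 named genes outside the family that were called, 5 kept direction and call under every alternative run. The count of relations to marker lists that passed, 2 of 32, became 0 by exact permutation with both arrays averaged as labelled, with median centring and with the value table, where 4, 6 and 2 relations had an unadjusted p under 0.05. Without a tumor (chosen after the data were seen) 0 to 2 passed, 0 without tumor 3 or tumor 7. No paired analysis was possible because the study has 1 group of tumors. Fabp1, Fabp6 and 1 Fabp2 probe are limited by signal near background.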
